A study of Rattus norvegicus with 12 samples.

Results

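The chromatin around the *Fkbp5* promoter was examined in ATAC-seq peak lists from the rat amygdala, collected 1 h after an acute injection. The promoter peak was taken at its position in the study's list of altered promoter peaks, on chromosome 20, and every listed peak within 50 kb on either side was included. The window held 67 of the 730912 peaks in the 12 lists. Peaks that overlapped between libraries were merged into regions, which gave 7 regions in the window of 118874 in all. The promoter peak was selected on its change in accessibility between Ethanol and Control in these same libraries, as the study listed it, so the promoter values below are a description and carry no test. The other 6 regions entered by position alone, and the 5 of them listed in at least 2 libraries were tested.

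All animals were adult male Sprague Dawley rats labelled as wild type. The 6 Control rats were injected with saline, the 6 Ethanol rats received 1 g/kg ethanol intraperitoneally, and each library came from a separate amygdala sample. ATAC-seq uses a transposase that inserts sequencing adapters where DNA is exposed, so a listed peak marks open chromatin. The lists hold positions and a score but no read counts, so depth is unknown. A site missing from a list fell below the authors' cut and is not thereby closed. The lists held 50370 to 75847 peaks covering 75.6 to 134.6 Mb, with the most in Ethanol 6 and Control 6. Greater covered totals can come with wider peaks at any locus, so covered length is also given per Mb of the library's total covered length. The amygdala is a mixture of cell types, and more cells of one type cannot be told apart from more open chromatin per cell. The tissue was not checked against marker genes, because the lists use Rnor_6.0, per the submitters' processing notes, and in that build only the study's positions for the few loci named below were used here.

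*Fkbp5* encodes a co-chaperone that joins HSP90 in glucocorticoid receptor complexes and lowers the affinity of the receptor for its hormone. The gene is itself induced by the activated receptor, which closes a short feedback loop on stress hormone signalling. Receptor-bound enhancers are known in its introns and upstream of it, and the gene is widely studied in the stress response of the amygdala and in alcohol use.

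The 250 bases ahead of the RefSeq start of *Fkbp5* are shown for the base composition and motifs ahead of an annotated start of the gene. The run lies at chr20:6543556-6543805 on the minus strand of GRCr8. That assembly differs from the build of the peaks, so the 2 sets of positions cannot be set side by side. Capitals mark the GC box with the letters GGGCGG, which is bound by factors of the Sp family. They also mark the CCAAT box, named for its letters, and the octamer ATTTGCAT, a site of POU factors. Each motif was searched on both strands, and no matches overlapped.
Fkbp5 promoter: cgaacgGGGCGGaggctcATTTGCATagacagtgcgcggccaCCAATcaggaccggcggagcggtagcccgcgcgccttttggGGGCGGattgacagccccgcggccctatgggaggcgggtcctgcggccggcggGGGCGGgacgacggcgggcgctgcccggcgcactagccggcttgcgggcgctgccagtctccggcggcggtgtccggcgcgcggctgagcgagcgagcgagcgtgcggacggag
The run held 41 CpG and was 76.0% G or C, against a median of 5 CpG in 33469 rat promoters of the same length, 99.0% of which had fewer. It held 3 GC boxes, 1 CCAAT box and 1 octamer, motifs found at least once in 30.5%, 34.0% and 1.56% of all these promoters. The core of the glucocorticoid response element, AGAACA, was absent from both strands of the run and present in 17.5% of promoters, which says only that those letters are not in this window. In GRCr8 this RefSeq start lies inside the gene, and predicted transcripts begin farther upstream. The peak that the study assigned to the promoter therefore need not cover the printed bases, and whether they lie under the promoter region, under the gene-body region 32.6 kb away or under neither was not tested.

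The promoter region, merged over the 12 lists, spanned chr20:8090969-8098770 (7802 bp) and had a peak in all 12 libraries. The study's annotation puts a start of *Fkbp5* in it and the gene body towards lower positions, called the gene-body side here. Peaks covered 1763 bp of it in Control 1, 1026 bp in Control 2, 2609 bp in Control 3, 1052 bp in Control 4, 3273 bp in Control 5 and 2394 bp in Control 6. In Ethanol 1 to 6 the lengths were 3439, 6044, 2966, 4971, 1957 and 7635 bp. Ethanol 1, 2, 4 and 6 exceeded every Control library, while Ethanol 3 lay below Control 5 and Ethanol 5 lay below 3 of the Control libraries, so the groups overlapped. The means were 2020 ± 900 bp and 4502 ± 2116 bp (SD, n = 6 each), a ratio of 2.23. Counting only bases in a peak in at least 6 of the 12 libraries, the ratio was 1.48. Among the 21640 regions with a peak in all 12 libraries, 3.89% had at least 4 Ethanol libraries above every Control library and 0.106% had a mean at least 2 times higher in Ethanol. The median ratio of those regions was 1.04. Nothing is read from these shares for the promoter, since it was chosen for this contrast.

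**Figure D1:**
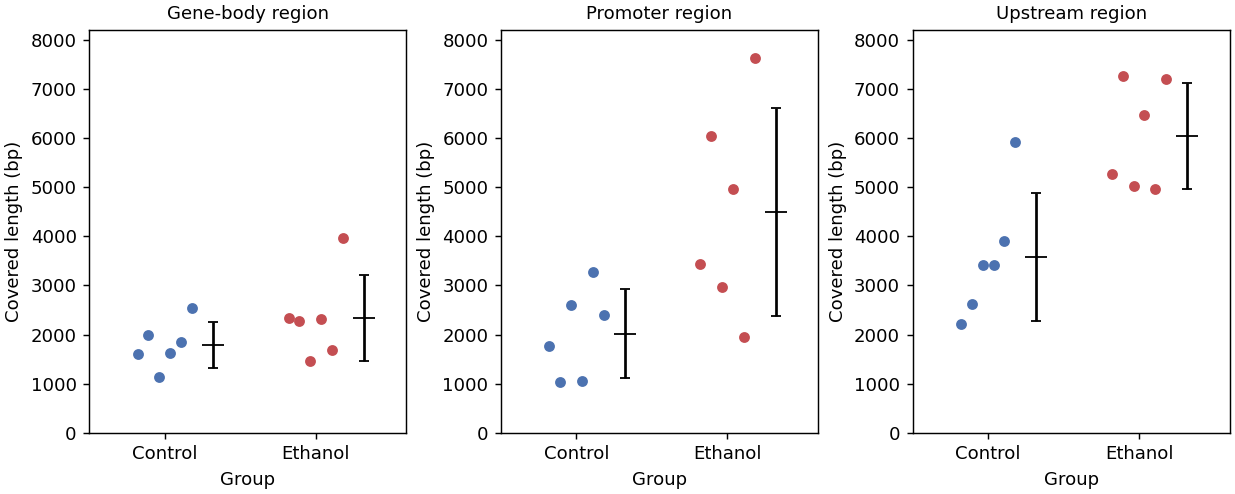
Covered length in bp of the 3 regions of the *Fkbp5* window with a peak in all 12 libraries, 1 point per library, with the mean and SD of each group as a bar beside the points (n = 6 each). The promoter region ranged from 1026 to 3273 bp in Control and from 1957 to 7635 bp in Ethanol.

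Per Mb of total covered length the promoter region had 22.9 ± 9.47 bp (SD, n = 6) for Control and 45.4 ± 16.7 bp (SD, n = 6) for Ethanol, a ratio of 1.98. The highest value was 67.6 bp per Mb in Ethanol 2, whose total of 89.4 Mb was lower than that of Control 5, Control 6 and 3 Ethanol libraries. Control 6 had the second longest total, 117.5 Mb, and 20.4 bp per Mb at the promoter. Ethanol 6 had the longest total, 134.6 Mb, and the greatest covered length, 7635 bp, or 56.7 bp per Mb. The part of total covered length in the promoter values was not tested. On the log2 scale relative to each library's median, the promoter difference, Ethanol minus Control, was 1.08 ± 0.33 (limma estimate ± SE). The promoter region also varied more than most regions within each group. Its SD of log2 covered length was 0.70 in Control and 0.72 in Ethanol, against a median of 0.31 over all regions in either group, and 93.3% and 94.7% of regions had a smaller SD.

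The added length was spread over the whole region. It was divided into an inner part of 3032 bp, a middle part of 2000 bp and an outer part of 2770 bp, counted from the gene-body side, with limits chosen after the profile was seen. The outer part, which by the study's distances holds the annotated start, had a peak in all 12 libraries, with 1694 ± 554 bp (SD, n = 6) for Control and 2504 ± 293 bp (SD, n = 6) for Ethanol, a ratio of 1.48. Ethanol 1, 2, 3, 4 and 6, from 2418 to 2770 bp, exceeded the Control maximum of 2394 bp, and Ethanol 5 had 1957 bp. Among whole regions, 0.975% had at least 5 Ethanol libraries above every Control library. That share is no base rate for a part cut after the profile was seen, so nothing is read from it. The mean differences, Ethanol minus Control, were 1090 bp in the inner, 582 bp in the middle and 811 bp in the outer part. Without Ethanol 6 they were 702, 380 and 774 bp, and the outer part then had the greatest difference. The middle part was covered in 2 of 6 Control libraries, by 782 bp in Control 3 and 1172 bp in Control 5, and in 4 of 6 Ethanol libraries, by 808 to 1917 bp in Ethanol 1, 2, 4 and 6.

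The inner part held no listed peak in any Control library and peaks in 4 of 6 Ethanol libraries. Peaks covered 1827 bp of it in Ethanol 2, 548 bp in Ethanol 3, 1134 bp in Ethanol 4 and 3032 bp in Ethanol 6. The 4 libraries shared a stretch of 548 bp at chr20:8091804-8092351. The inner part was delimited after the profile was seen, in a region chosen for this contrast. How often such a split occurs in the genome was not counted. The score of each peak was ranked within its library, with the percentile running up to 100 for the highest score. The peaks holding the shared stretch stood at the 63.5, 64.4, 81.1 and 85.4 percentile in Ethanol 2, 3, 4 and 6, so each was in the higher scoring 50% of its list. The second peak of the inner part in Ethanol 2 was weaker, at the 26.8 percentile, as was that in Ethanol 4, at the 47.4 percentile.

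**Figure D2:**
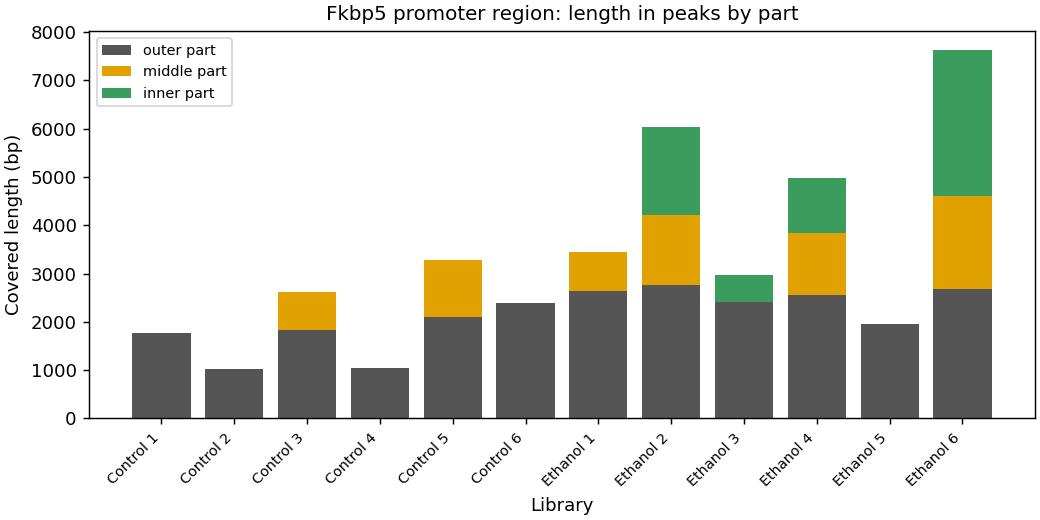
Covered length in bp of the *Fkbp5* promoter region in each library, with the outer, middle and inner parts stacked. The inner part is 0 bp in the 6 Control libraries and 548 to 3032 bp in Ethanol 2, 3, 4 and 6, while the outer part is present in all 12.

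The region held 1 peak in Control 1, 2, 4 and 6 and 2 peaks in Control 3 and 5. Ethanol libraries had 2, 4, 2, 4, 1 and 2 peaks in order of number. Ethanol 6, with the greatest covered length, had only 2, because a single peak of 4949 bp ran across the inner and middle parts where Ethanol 2 and 4 had 3 separate peaks. Covered length and peak number thus ranked the libraries differently. From the first to the last covered base the region spanned 2180 ± 1121 bp (SD, n = 6) for Control and 5755 ± 2305 bp (SD, n = 6) for Ethanol. The outer edge differed less than the inner edge. The mean position, Ethanol minus Control, differed by 458 bp for the last covered base and by -3117 bp for the first. The last covered base lay between 8097729 and 8098689 in Control and between 8098522 and 8098770 in Ethanol. In 4 Control libraries it was below that of every Ethanol library.

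**Figure D3:**
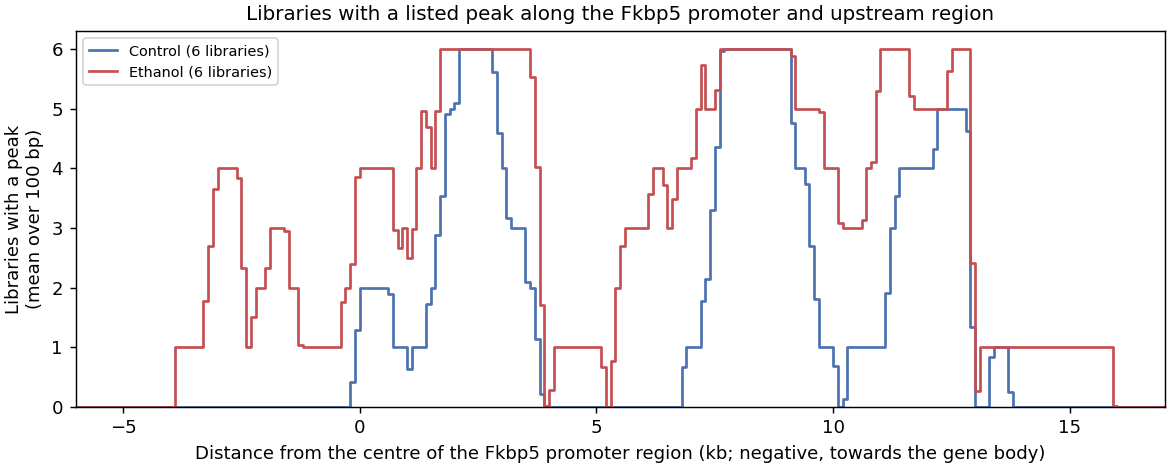
Number of libraries of each group with a listed peak, averaged over 100 bp, by distance in kb from the centre of the *Fkbp5* promoter region. Both groups reach 6 libraries at the outer part of the promoter and at the nearer site of the upstream region, and Ethanol alone reaches 4 libraries at the inner part.

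By score the promoter was a middling to strong peak. The highest scoring peak of the region stood at the 76.4, 51.6, 64.9, 73.1, 80.6 and 76.4 percentile of Control 1 to 6. In Ethanol 1 to 6 it stood at the 76.5, 82.7, 80.5, 86.6, 67.9 and 90.6 percentile. Only Ethanol 2, 4 and 6 were above every Control library, so the ranks overlapped more than the lengths did. The means were 70.5 ± 10.7 and 80.8 ± 7.97 (SD, n = 6 each), a difference of 10.3 percentile points.

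Next in line was the upstream region, 9.2 kb away between centres and spanning chr20:8100231-8107863 (7633 bp), also with peaks in all 12 libraries. Peaks covered 2210, 2613, 3415, 3412, 3900 and 5921 bp of it in Control 1 to 6. The lengths were 5266, 7263, 5021, 6479, 4975 and 7212 bp in Ethanol 1 to 6. Control 1 to 5 lay below every Ethanol library and Control 6 lay among them. This pattern, at least 5 Control libraries below every Ethanol library, was found in 1.04% of the 21640 regions. The means were 3578 ± 1300 bp and 6036 ± 1080 bp (SD, n = 6 each), a ratio of 1.69. Per Mb of total covered length they were 39.9 ± 7.78 and 63.2 ± 11.6 bp (SD, n = 6 each), and here too 5 Control libraries lay below every Ethanol library. How many regions had this pattern per Mb was not counted.

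In the limma fit over the 21640 regions the upstream region was wider in Ethanol by 0.75 ± 0.18 on the log2 scale (estimate ± SE), with an unadjusted p of 0.000831 and a limma adjusted p of 0.878. It did not pass, and of the 21640 regions 0 (0%) did, while 639 regions wider in Ethanol (2.95%) and 481 narrower (2.22%) had an unadjusted p under 0.05. With a pseudocount of 100 bp over the 77224 regions listed in at least 2 libraries, limma called 14 regions, none in the window, and without Ethanol 2 it called 1 of 21640, also outside the window. The adjusted p of the upstream region ranged from 0.426 to 1.00 over 18 other settings of the limma fit, with a difference from 0.59 to 0.86.

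The upstream region was made of a nearer site, with a peak in all 12 libraries, and a farther site, with a peak in 5 of 6 Control and 6 of 6 Ethanol libraries. The sites were separate peaks in the 5 Control lists that held both. A single peak of 5347 bp in Ethanol 2 and 6271 bp in Ethanol 6 joined them, and the long peak of Ethanol 5, 4416 bp, reached from the nearer into the farther site. The longest peak averaged 2204 ± 558 bp (SD, n = 6) for Control and 4423 ± 1274 bp (SD, n = 6) for Ethanol. On the side facing the promoter, a stretch of 329 bp at chr20:8101012-8101340 was covered in Ethanol 2, 3, 4 and 6 and in 0 Control libraries. It was picked as a stretch covered in at least 4 libraries, and how often such a split occurs in the genome was not counted. The uncovered gap between the promoter region and the next peak upstream averaged 4016 ± 652 bp over Control and 2083 ± 1255 bp over Ethanol libraries (SD, n = 6 each). It was shortest in Ethanol 6, 234 bp, where a weak peak at the 8.37 percentile lay between the regions.

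By score the upstream region ranked high in every library. Its highest peak stood at the 87.6 ± 4.01 percentile in Control and 90.0 ± 4.85 in Ethanol (SD, n = 6 each). The difference was 2.36 ± 2.5 percentile points (± SE), with a limma adjusted p of 1.00. In the score fit 0 of 21640 regions passed (0%), and 3.40% had an unadjusted p under 0.05. Without Control 6 that limma fit called 1 region, outside the window.

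**Figure D4:**
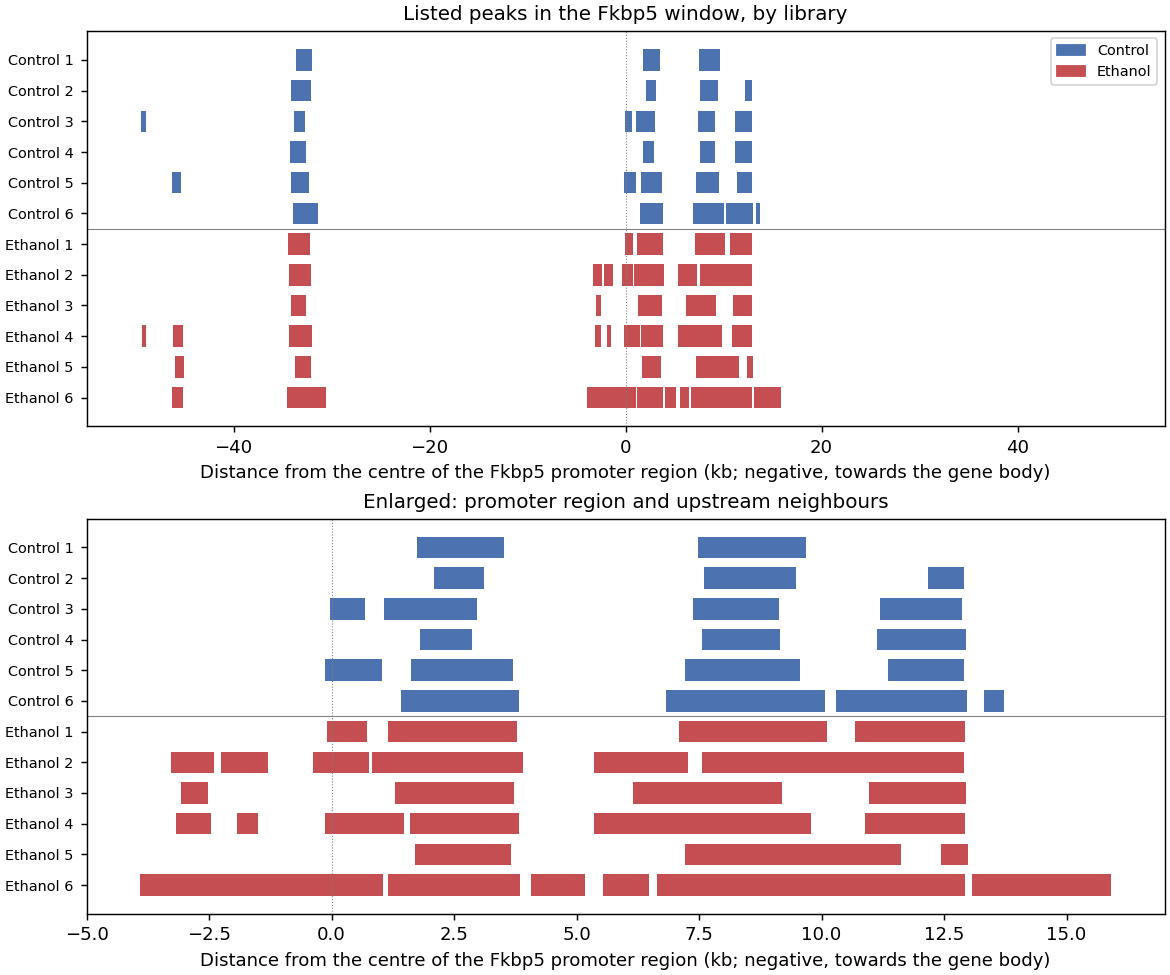
Listed peaks of each library in the *Fkbp5* window as bars, by distance in kb from the centre of the promoter region, over the whole window and enlarged around the promoter. The peak near -33 kb is listed in all 12 libraries, at 1132 to 3964 bp, and peaks at the inner part, below -1 kb in the enlarged panel, are found in Ethanol 2, 3, 4 and 6.

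On the gene-body side, 32.6 kb from the promoter region, lay a second region with a peak in all 12 libraries, chr20:8060324-8064287 (3964 bp). It had exactly 1 peak in each library. Peaks covered 1605, 1986, 1132, 1622, 1846 and 2544 bp in Control 1 to 6. In Ethanol 1 to 6 the lengths were 2341, 2267, 1469, 2314, 1681 and 3964 bp, and Ethanol 6 alone exceeded every Control library. The means were 1789 ± 470 bp and 2339 ± 876 bp (SD, n = 6 each), and the limma difference of 0.29 ± 0.18 (log2 difference ± SE) had an adjusted p of 0.977. Its score stood at the 86.3 ± 4.06 percentile in Control and 87.4 ± 3.88 in Ethanol (SD, n = 6 each), and it was above the promoter region in 11 of 12 libraries, the exception being Ethanol 6 with 89.9 against 90.6. The score difference of 1.10 ± 2.24 points (± SE) had a limma adjusted p of 1.00.

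The other 4 regions of the window were listed in few libraries. The region 45.7 kb from the promoter on the gene-body side had peaks of 907 to 1061 bp in Control 5 and Ethanol 4, 5 and 6 (two-sided Fisher's exact test, p = 0.545, adjusted p = 1). The region 49.2 kb away on that side was listed in Control 3 and Ethanol 4, and the one 14.5 kb upstream in Control 6 and Ethanol 6 (two-sided Fisher's exact test, p = 1 for each). A peak 4.6 kb upstream was found in Ethanol 6 only and was not tested. Over the genome Fisher's exact test called 0 of 77224 regions (0%) after adjustment, and for 148 of them (0.192%) the p before adjustment was under 0.05. Just outside the window, the nearest region on the gene-body side was a peak of 642 bp in Ethanol 1 alone, 55.9 kb away.

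The nearest region beyond the upstream end, 70.8 kb from the promoter at chr20:8163262-8168010, had a peak in all 12 libraries and a limma difference of 0.06 ± 0.16 (log2 difference ± SE; limma adjusted p of 0.990). Summed, the 6 neighbours in the window covered 5676 ± 1824 bp (SD, n = 6) for Control and 9593 ± 3489 bp (SD, n = 6) for Ethanol, or 63.5 ± 8.71 and 97.3 ± 18.4 bp per Mb. From 50 to 100 kb upstream the lengths were 3321 ± 840 and 3709 ± 900 bp (SD, n = 6 each), a ratio of 1.12. The upstream ratio was 1.54 from 100 to 150 kb and 1.35 from 150 to 200 kb. On the gene-body side the ratios at these 3 distances were 5.7, 3.01 and 1.11.

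Farther along the gene-body side, from 50 to 150 kb beyond the promoter region, the lists held 13 regions, 8 of them in at least 2 libraries. This stretch is made of the 2 flanking windows with the highest ratios, 5.7 and 3.01. More Ethanol than Control libraries had a peak at 7 of the 8 and fewer at 1. Across the genome 41.7% of the regions in 2 to 11 libraries had more Ethanol libraries and 29.4% more Control libraries. A stretch with high ratios favours such a count in advance, so nothing is read from it. None of the 8 had an unadjusted Fisher's exact p under 0.05, the smallest being 0.182. Ethanol 4 listed 8 of the 13 regions, Ethanol 6 listed 7 and Ethanol 2 listed 5, against 1 to 3 in each of the other 9 libraries. From 50 to 100 kb the covered length averaged 448 ± 558 bp over Control and 2558 ± 3063 bp over Ethanol libraries (SD, n = 6 each), with as much as 8285 bp in 1 Ethanol library and 0 bp in another.

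**Figure D5:**
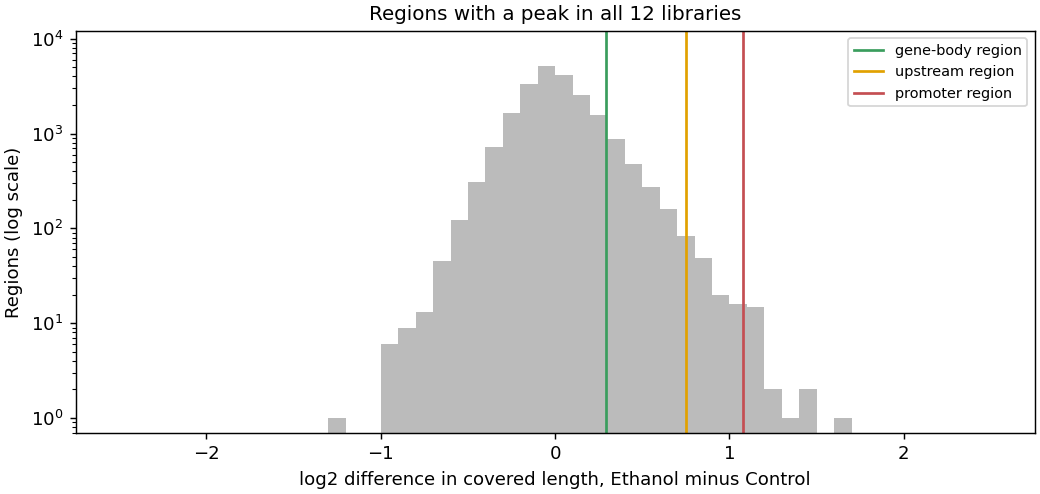
Number of regions (log scale) by log2 difference in covered length, Ethanol minus Control, for the 21640 regions with a peak in all 12 libraries, with the 3 *Fkbp5* regions as lines. The promoter is at 1.08, the upstream region at 0.75 and the gene-body region at 0.29.

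The promoter region was set beside those of *Hif3a*, a hypoxia-inducible factor subunit, and *Zbtb16*, a zinc finger transcription factor that responds to glucocorticoids. Both are on the study's list for the same contrast, so the differences are descriptions. The *Zbtb16* promoter region, chr8:53142420-53148464, had 2117 ± 536 bp (SD, n = 6) for Control and 3639 ± 1226 bp (SD, n = 6) for Ethanol, a ratio of 1.72. The *Hif3a* start site region had a ratio of 1.59 and its upstream region 1.37, against 2.23 at *Fkbp5*. These ratios are of covered length only. The log fold changes that the paper lists for these peaks have another order. There the upstream *Hif3a* peak has the greatest change, followed by *Fkbp5*, the *Hif3a* start site and *Zbtb16*. By overlap of the groups the order differed. At each *Hif3a* region and at *Zbtb16*, 5 of 6 Ethanol libraries exceeded every Control library in covered length, against 4 at *Fkbp5*. Among the 21640 regions 0.975% had at least 5 such Ethanol libraries and 3.89% at least 4. The loci were chosen for this contrast, so nothing is read from these shares. Control libraries below every Ethanol library numbered 5 at the *Hif3a* start site, 4 at its upstream region, 3 at *Fkbp5* and 2 at *Zbtb16*. By that count *Zbtb16* overlapped more than *Fkbp5*. The paper reports that its most significant altered promoter peak belonged to *Hif3a*. The number of peaks at *Zbtb16* was 1.33 on average in both groups, where *Fkbp5* went from 1.33 to 2.5.

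The likeness of other regions was measured as Pearson's r with the *Fkbp5* promoter, over the 12 libraries, of log2 covered length relative to the library median. The values share libraries and group differences, and no test was made. More than 1 Mb away, the 3 regions most alike were chr3:162501167-162533485 (r = 0.874), chr8:53051068-53056864 (r = 0.853) and chr17:62438764-62441421 (r = 0.850). The second lay 85.6 kb from the *Zbtb16* promoter region. The *Hif3a* start site had r = 0.803 and the *Zbtb16* promoter r = 0.70. Within the window r was 0.761 for the upstream region and 0.458 for the gene-body region, and it was 0.0206 for the region 70.8 kb upstream.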

How the data were processed

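ATAC-seq peak lists of 12 amygdala libraries, 6 Control and 6 Ethanol, were analysed, with groups and numbers taken from the sample titles. The authors deposited 1 list per library giving the position and name of each peak and a score whose meaning is not given in the sources used here. The submitters' processing notes name BWA, MACS2 2.1.1, bedtools 2.27.1, featureCounts 1.5.0, edgeR and the build Rnor_6.0, with no role for each. How duplicates, mitochondrial reads and the transposase offset were handled is likewise not given in the sources used here, which do not include the study's supplementary methods. Depth is unknown, and replicates were not pooled.

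Peaks sharing at least 1 bp were merged into regions. Covered length (log2, centred on the library median) and the percentile of the highest score were fitted with limma 3.58.1 in R 4.3.3 for regions with a peak in all 12 libraries. Detection was tested by Fisher's exact test (SciPy 1.17.1) for regions in at least 2 libraries. P-values were adjusted by Benjamini-Hochberg over all regions, with a threshold of 0.05. Each fit was tested on simulated data with known answers. No 2 lists shared more than 0.0159% of their peaks with equal bounds. Sequences came from RefSeq (GRCr8), where the 1 gene matched. A list of 22 glucocorticoid pathway genes and the cell type markers needed positions in Rnor_6.0 and were not analysed here. The regions described were the promoter, each region of the window in at least 2 libraries, the nearest on each side, 3 comparison loci and the 3 most alike regions. Single library regions were named after their values were seen. The members and lists were chosen with earlier results of these data known. The labels name no batch or date.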

Additional observations from a re-analysis of the deposited data

Results flagged for a closer look

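The values of each group were searched for a library far from the others with Dixon's criterion for 22 groups of 6 libraries, and chance alone marks about 1 group in 20. In the gene-body region, Ethanol 6 had 3964 bp against 2341 bp in the next Ethanol library. Its total covered length, 134.6 Mb, was also the greatest of the 12. Per Mb of that total it had 29.5 bp, also the highest of the Ethanol libraries. The part of total covered length in the value was not tested.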

How the results depend on the processing

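All 48 values recomputed under other settings with all libraries, or without Ethanol 6 and Ethanol 2 together, had the same sign or stayed at 0, and none crossed the threshold. The settings were the higher scoring 50% of peaks, the same number of peaks (50370) in each library, other centring, a pseudocount of 100 bp, division by total covered length, windows of 25 and 100 kb, a mean score percentile weighted by peak length, 50% coverage for detection and the replicate block. The parts of the promoter, leaving out 2 libraries and 3 settings for the neighbours were chosen after seeing the data. The inner part gave no ratio because no Control library had a peak there. The promoter ratio of 2.23 was 2.31 with the higher scoring 50% and 1.48 for the part covered in at least 6 libraries. It was 1.65 without Ethanol 6 and Ethanol 2, within the region limits from all 12 libraries.

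With 1 library left out in turn, the promoter ratio ranged from 1.92 (without Ethanol 6) to 2.55 (without Control 5), and that of the neighbours from 1.46 to 1.90. The promoter region kept its limits from all 12 libraries in each case. Between the inner and middle peaks of the other libraries, only the 4949 bp peak of Ethanol 6 was listed. Without Ethanol 6 the inner peaks would form regions of their own, and a ratio with limits redrawn in that way was not computed. The limma difference ranged from 0.64 to 0.86 for the upstream and 0.18 to 0.38 for the gene-body region, and 0 neighbours passed. Whether replicate numbers pair the samples was not tested. Correlations of deviations ran from -0.0722 to 0.214 (mean 0.0484) for the 6 pairs with the same number. For the 30 pairs with other numbers they ran from -0.171 to 0.122 (mean -0.00961). With the replicate block the upstream difference was 0.75 with a limma adjusted p of 0.847, the promoter ratio 2.23, and 0 neighbours passed.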
